A study of Mus musculus with 7 samples.

Results

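A small set of cells among proliferating αβ-lineage thymocyte precursors held almost no transcripts of 4 genes that mark the cell cycle. These non-cycling DN3b γδ− cells numbered 778 of the 17959 cells kept in their library, or 4.33% (exact binomial 95% interval 4.04% to 4.64%), and the series held 90016 barcodes in all. They were chosen by measured values, namely at most 1 unique molecular identifier (UMI, the tag that counts single transcript molecules) of Mki67, Top2a, Rrm2 and Tyms together. A barcode was kept with at least 1000 detected genes, at most 10% mitochondrial UMIs and at most 1 UMI of the B cell genes Cd79a, Cd79b and Ms4a1. The comparison cells of the same library, called cycling here, were the 16209 kept cells with at least 4 UMIs of the same genes. The 972 cells with 2 or 3 UMIs lay between. The word non-cycling names this rule only. As given below, 170 of the cells formed a cluster with more Ccnb2 and Cenpa, genes of mitosis, than cycling cells. Another 196 formed a cluster with more Ung, a gene of S phase, so the name goes against these transcripts. The lists of mitosis and DNA replication genes as a whole were lower in these clusters than in cycling cells. Such genes also helped to make the clusters.

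Single-cell RNA libraries (10x 3′ chemistry) were made from 7 sorted thymocyte groups, with 1 library per group. All WT groups used here came from pooled thymi of C57BL/6 mice of both sexes, 6 to 8 weeks old, after beads had removed CD4+ and CD8+ cells, and each library received 500 spiked B lymphocytes. The DN3b γδ− gate held double-negative cells with CD25 and CD71 on their surface and without surface γδ T cell receptor (TCR). Il2ra, which encodes CD25, and Tfrc, which encodes CD71, were therefore part of the gate, although their proteins and not their transcripts were sorted on. Non-cycling cells picked by the same rule in WT DN3a (5572 cells, the CD25+ stage before selection, without CD71), WT DN4 γδ− (583 cells, the later stage without CD25) and WT DN3b γδ+ (754 cells, with surface γδ TCR) served as comparisons. Groups from Lat-KO mice were not compared. Because a group was 1 library, nothing was tested between groups. Cells are not replicates, and every interval below covers counting error only. For a gene list, the interval runs from the median of the genes' lower bounds to the median of their upper bounds. It is not the spread over genes. Library and group cannot be told apart.

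At the DN3 stage a thymocyte rearranges its TCR β, γ and δ genes with the RAG1 and RAG2 recombinase under NOTCH signals and stops dividing. A productive β chain pairs with the pre-TCR α chain (Ptcra), and this pre-TCR starts β-selection, in which cells grow, take up transferrin through CD71, divide rapidly, switch off Rag1, Rag2 and Ptcra and pass to DN4. Most DN3b cells are therefore in cycle. Mki67 encodes the proliferation antigen Ki-67, Top2a a DNA topoisomerase of late S phase and mitosis, and Rrm2 and Tyms encode enzymes that supply nucleotides for DNA synthesis.

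The promoters of these genes are shown because they chose the cells, and those of the genes with the highest ratio in the non-cycling cells because they stand at the other end of the ranking. RefSeq windows on GRCm38.p6 were found for 6 of 7 genes looked for. E430002N23Rik had no entry. Each line gives the 250 bases before the start site, in the direction of the gene. Capitals mark TTTGAA (the cell cycle homology region, CHR) and CCAAT boxes on either strand, and the E2F forms TTTCCCGC and TTTGGCGC were searched in the same way. None of the matches overlapped another.

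Mki67 (chr7:135716380-135716629, minus strand): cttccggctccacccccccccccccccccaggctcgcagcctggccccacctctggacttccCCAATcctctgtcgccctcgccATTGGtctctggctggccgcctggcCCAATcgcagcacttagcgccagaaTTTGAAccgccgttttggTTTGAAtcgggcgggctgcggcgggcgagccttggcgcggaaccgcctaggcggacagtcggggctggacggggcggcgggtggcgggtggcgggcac
Top2a (chr11:99024190-99024439, minus strand): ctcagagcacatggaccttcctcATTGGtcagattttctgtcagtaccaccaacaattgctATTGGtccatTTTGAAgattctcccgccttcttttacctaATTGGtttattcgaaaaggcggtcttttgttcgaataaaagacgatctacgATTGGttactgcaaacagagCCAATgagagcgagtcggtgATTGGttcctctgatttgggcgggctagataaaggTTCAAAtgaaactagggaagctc
Rrm2 (chr12:24708004-24708253, plus strand): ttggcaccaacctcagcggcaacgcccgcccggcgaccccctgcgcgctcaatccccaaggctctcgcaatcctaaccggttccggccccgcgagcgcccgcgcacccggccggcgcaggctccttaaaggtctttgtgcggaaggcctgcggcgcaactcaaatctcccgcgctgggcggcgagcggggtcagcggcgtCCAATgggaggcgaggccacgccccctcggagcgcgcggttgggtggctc
Tyms (chr5:30073626-30073875, minus strand): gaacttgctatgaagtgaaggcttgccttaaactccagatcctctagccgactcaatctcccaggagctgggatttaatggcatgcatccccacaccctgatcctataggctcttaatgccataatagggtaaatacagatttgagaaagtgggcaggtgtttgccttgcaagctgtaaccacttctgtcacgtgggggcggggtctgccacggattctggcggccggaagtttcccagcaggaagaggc
Gm5111 (chr6:48589195-48589444, plus strand): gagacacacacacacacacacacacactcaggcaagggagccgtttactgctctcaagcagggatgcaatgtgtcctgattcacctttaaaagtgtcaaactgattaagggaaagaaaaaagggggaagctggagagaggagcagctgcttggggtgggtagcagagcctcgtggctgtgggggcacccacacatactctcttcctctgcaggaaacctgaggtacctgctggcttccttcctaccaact
Gm4632 (chr14:79199191-79199440, minus strand): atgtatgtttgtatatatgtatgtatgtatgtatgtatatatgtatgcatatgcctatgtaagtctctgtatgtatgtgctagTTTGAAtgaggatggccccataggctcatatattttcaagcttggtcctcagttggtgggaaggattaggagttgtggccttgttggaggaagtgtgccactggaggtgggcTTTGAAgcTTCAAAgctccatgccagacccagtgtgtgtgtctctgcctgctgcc

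Mki67 held 2 CHR and 3 CCAAT matches, Top2a held 2 and 6, Rrm2 held 1 CCAAT match, and Tyms and Gm5111 held none of the motifs. Gm4632 held 3 CHR matches. No window shown held an E2F form. Among all 32851 windows of this length, 16.0% held TTTGAA, 33.9% held CCAAT, 0.895% held TTTCCCGC and 0.417% held TTTGGCGC. Of 27 windows of 26 genes of a mitosis list, 33.3% held TTTGAA, 81.5% held CCAAT and none held an E2F form. Of 28 windows of 23 DNA replication genes, 57.1% held CCAAT, 10.7% TTTGAA, 14.3% TTTCCCGC and 10.7% TTTGGCGC.

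The non-cycling cells were shallow, with a median of 7710 UMIs and 2454 genes against 18004 UMIs and 3892 genes in cycling cells, and 92 of them had under 4000 UMIs. Mitochondrial UMIs had a median share of 3.45% against 2.73%. The 184 spiked B cells of the library held 2.62 UMIs of the rule genes per 10000 UMIs, and the source of these, free RNA among others, was not tested. The non-cycling cells held 0.783 and the cycling cells 16.5. Of the B cells, 78.8% had at most 1 UMI of these genes at a median depth of 2646. The share of non-cycling cells was 4.86% for DN4 γδ−, 6.46% for DN3b γδ+ and 89.0% for DN3a. Between 1 and 4 of the 778 cell barcodes also occurred in each of the other libraries.

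The label of T lineage cells was borne out by the markers. T cell marker genes summed to 8614 CPM (UMIs of a gene scaled to the UMIs of all genes in a group) in non-cycling cells, 6861 in cycling cells and 1038 in B cells, and only 6 of the 778 cells had under 10 UMIs of them. Markers of myeloid cells summed to 10.9 CPM, of erythroid cells to 4.07 and of early thymic progenitors to 9.94. Stromal and epithelial markers summed to 129 CPM, nearly all from Epcam (82.6 CPM) and Pecam1 (45.4 CPM), with Col1a1 and Col3a1 at 0. B cell markers summed to 303 CPM against 244 in cycling cells, of which Ighm gave 226. The 3 with at least 20 CPM in either group had a median log2 ratio of 1.33 over cycling cells, 2 of them at least 2-fold higher. Cd79a, Cd79b and Ms4a1 on this list were limited by the rule. Csf1r, C1qa, S100a8, Siglech, Ncr1, Flt3 and Mpo were at 0. The NK and plasmacytoid lists were carried by Gzma (686 CPM), Nkg7 (63.4 CPM) and Bst2 (355 CPM), which were also present in cycling cells at 672, 29.3 and 194 CPM. Cd74, an antigen-presentation gene, stood at 22.8 CPM against 3.55 in cycling cells, but 1 cell carried 103 of its 140 UMIs. That cell had only 7 UMIs of T cell markers and held 62.1% of the UMIs of Cd74, H2-Aa, H2-Ab1 and H2-Eb1 in all 778 cells.

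The first comparison describes what else differed between non-cycling and cycling cells of the sort. It shares its libraries with the choice of the cells and is therefore a description. The rule genes belong to S phase and mitosis. The rule thus favours lower levels of other such genes, which are no independent evidence. Of 5569 genes with at least 20 CPM in either group and at least 10 UMIs together, without the rule genes, 222 (3.99%) were at least 2-fold higher in non-cycling cells and 208 (3.73%) at least 2-fold lower. The median log2 ratio was −0.02. Scaling by trimmed means (TMM) moved all log2 ratios by −0.21 and gave 150 genes higher and 327 lower. The count of higher genes moved with other choices too, to 338 of 5669 genes with only the cells of 0 rule-gene UMIs. Without genes higher in B cells than in either group it was 84 of 3386 genes. It was 51 of 5379 with a thinned rule, where each cell was thinned to 4000 UMIs. In that rule non-cycling meant 0 and cycling at least 2 rule-gene UMIs. The count was 705 of 5927 with the shallower and 75 of 5376 with the deeper cells alone, a split chosen after seeing the data. In this and the following comparisons a gene low in one group entered only through the other, so counts over genes within the limits favour differences. The 15 highest genes included Rag1 of the DN3a list, and the 15 lowest were mostly genes of mitosis and S phase.

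**Figure D1:**
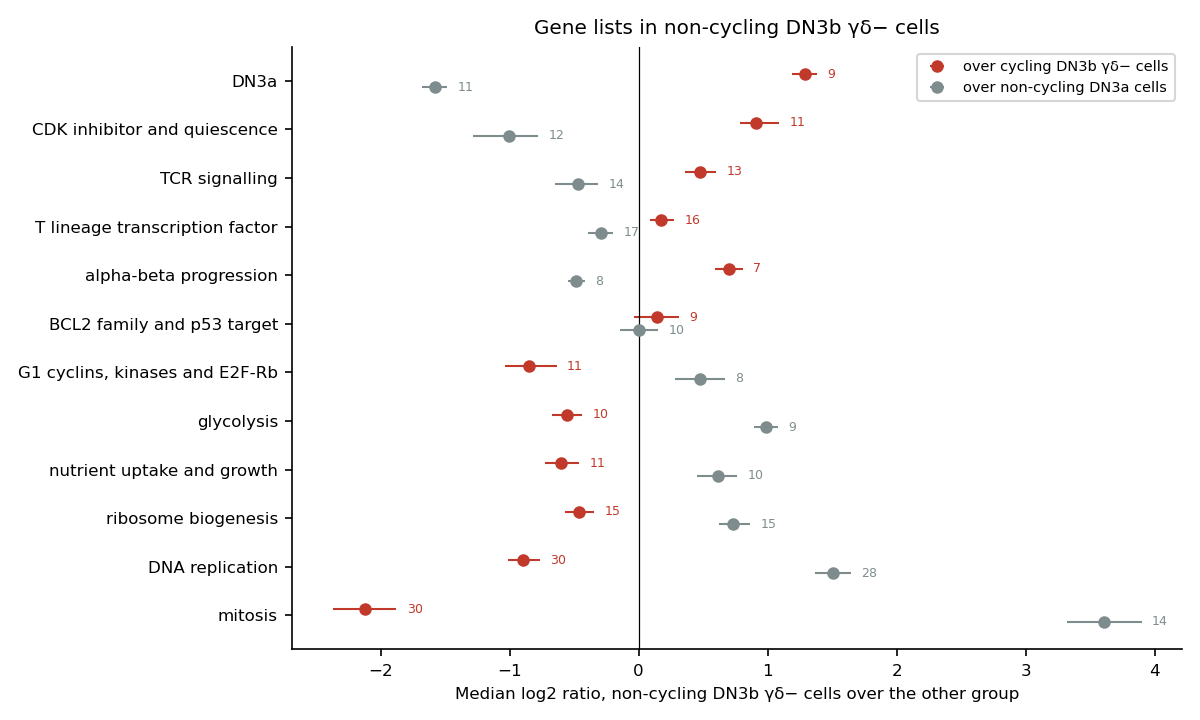
Median log2 ratio (x axis) of 12 gene lists in non-cycling DN3b γδ− cells over cycling cells of the same library (red) and over non-cycling DN3a cells (grey). The number beside each point is the count of genes within the limits, and bars run from the median of the genes' lower 95% bounds to the median of their upper bounds. DN3a genes lie at 1.29 and −1.58, and DNA replication genes at −0.90 and 1.51.

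Among the 15 genes with the highest ratio, Gm4632 had the most transcripts, with 398 CPM in non-cycling and 55.3 CPM in cycling cells (log2 ratio 2.85), against 1199.7 CPM in non-cycling DN3a cells. Gm5111 led the ranking at 28.7 against 2.84 CPM (log2 ratio 3.33) and had 99.1 CPM in DN3a. Mxd4, a MYC antagonist of the MAX network, stood at 123 against 22.2 CPM (log2 ratio 2.48) and at 144 CPM in DN3a. H19, an imprinted non-coding RNA, stood at 27.5 against 4.67 CPM, and Tifa, an adaptor of NF-κB signalling, at 27.5 against 4.45 CPM. Rag1 stood at rank 10, with a log2 ratio of 2.16. E430002N23Rik, Ctla2a, Chrna9, Plaat3, Tshz2, Hist1h2bc, Alox5ap, Sytl1 and Rab44 made up the rest, with log2 ratios between 1.99 and 2.67. Of the 15, only Hist1h2bc and Alox5ap were not lower in non-cycling DN3b γδ− than in DN3a cells, at 77.4 against 49.0 CPM and 27.5 against 27.3 CPM.

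The 15 lowest genes were mostly genes of mitosis and S phase, from Ccnf (2.77 CPM against 41.3 in cycling cells, log2 ratio −3.90), which encodes cyclin F, to Kif11 (13.2 against 113 CPM, log2 ratio −3.10), a motor of the mitotic spindle. They included Nusap1, Sgo2a, Esco2, Spc25, E2f8, Plk1, Aurkb, Cdk1, Prc1, Neil3, Mxd3 and Haspin. Their low level is favoured by the rule that chose the cells. Plk1, a mitotic kinase, had 7.17 CPM against 76.3, and Cdk1, the kinase that drives entry into mitosis, 13.7 against 139 CPM. In B cells of the same library they stood at 12.6 and 27.1 CPM. All 15 genes had more CPM in B cells than in the non-cycling cells. B cells were shallower, and the part of free RNA in these levels was not tested, so they set no background here.

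Genes of the DN3a stage were higher in non-cycling than in cycling DN3b γδ− cells and lower than in DN3a. The study names Rag1, Ptcra, Notch3, Hes1 and Il2ra among the top DN3a genes of these libraries. Their lower level than in DN3a is therefore no independent evidence. Of 13 genes on the list, 9 were within the limits against cycling cells, all 9 were higher and 5 by at least 2-fold (median log2 ratio 1.29, interval 1.19 to 1.38). With the thinned rule described above the median was 0.72 (0.58 to 0.85), and with a filter on markers of T and other cell types, which left 44 cells, 0.83. Rag1 had 147 CPM in non-cycling cells (95% interval 138 to 157), 32.9 in cycling and 495 in DN3a cells. Ptcra had 148, 60.6 and 442 CPM in the same order. Rag1 was at 5.41 CPM in B cells and Ptcra at 21.7.

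NOTCH genes took the same order. Notch3, a receptor and target of the pathway, had 45.6 CPM in non-cycling, 14.2 in cycling and 160 in DN3a cells, Hes1, a target and repressor, 189, 73.7 and 595 CPM, and Notch1 190.1, 122 and 479.6 CPM. The gate gene Il2ra had 179, 94.6 and 637 CPM, with log2 ratios of 0.92 to the cycling cells and −1.83 to DN3a. Dtx1, a NOTCH target, had 19.5, 12.6 and 74.6 CPM. Dntt, which encodes the terminal transferase that adds bases at V(D)J junctions, had 1242, 780 and 1581 CPM. Il7r, the receptor for interleukin 7, had 90.7, 76.9 and 92.5 CPM, and its log2 difference from DN3a was −0.03 (95% interval −0.16 to 0.10).

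**Figure D2:**
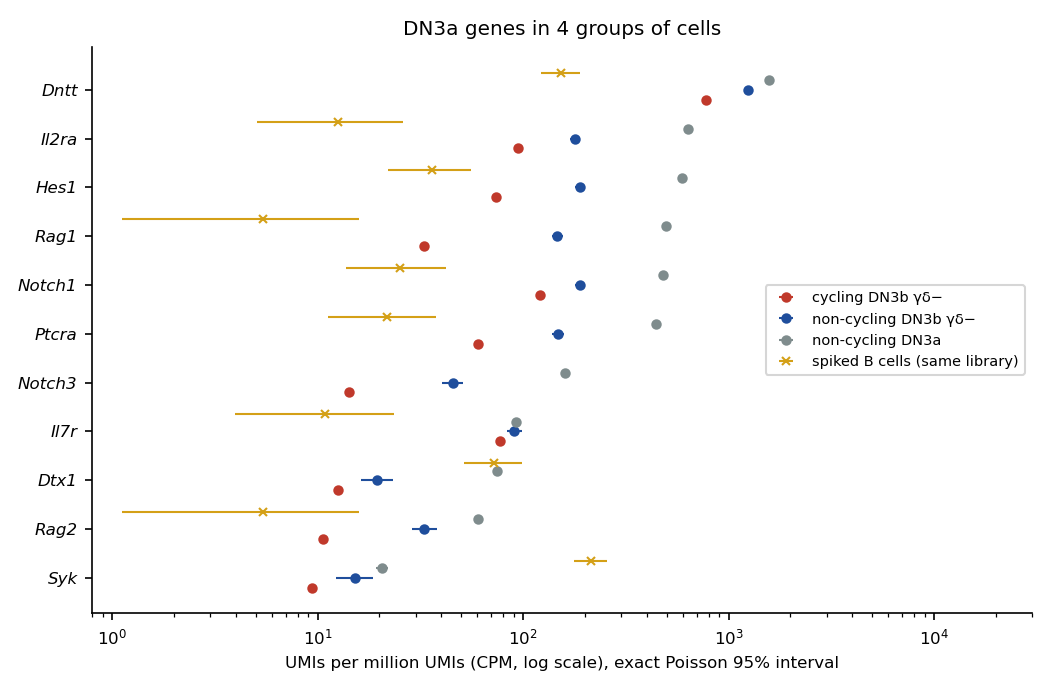
CPM on a log axis of the 11 DN3a genes that reached 20 CPM in non-cycling or cycling DN3b γδ− or non-cycling DN3a cells, with spiked B cells of the library beside them (crosses). Bars are exact Poisson 95% intervals, and genes without UMIs in B cells have no cross. Non-cycling cells (blue) lie between cycling (red) and DN3a cells (grey) for all 11 genes.

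Against non-cycling DN3a cells 5784 genes were within the limits, of which 235 (4.06%) were at least 2-fold higher and 306 (5.29%) at least 2-fold lower. All 11 DN3a genes within the limits were lower and 7 of them by at least 2-fold (median log2 ratio −1.58, interval −1.68 to −1.48). Some of them were named by the study from these libraries, so this direction is no independent evidence. The genes furthest below DN3a were AY036118 (61.6 against 1284 CPM), Ptgs2, Gstp1, Scn4b and Hspa1b. In cycling cells of the library they stood at 41.3, 0.354, 8.22, 0.733 and 9.32 CPM. Gstp1 had 8.14 CPM in non-cycling DN3b γδ− cells, 9.02 in B cells of the library, 90.8 in DN3a and 44.3 in non-cycling DN4 γδ− cells. The part of the library in such differences was not tested. The genes furthest above DN3a were Birc5, Ccna2, Ccnb2, Cdca3 and Cenpf, all genes of mitosis. The position between was general. Of 976 genes at least 2-fold higher in DN3a than in cycling DN3b γδ− cells, non-cycling DN3b γδ− cells lay between for 950 (97.3%), and of 794 genes at least 2-fold lower for 775 (97.6%). The median gene lay 50.1% of the way from cycling to DN3a on the log2 scale for the first set and 40.5% for the second. Choosing genes by their extremes in the other groups favours values in between, and no share was tested.

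All 30 DNA replication genes were lower than in cycling cells, 12 by at least 2-fold (median log2 ratio −0.90). The rule favours this direction, so it is no independent evidence. Against DN3a, 27 of 28 within the limits were higher, 21 by at least 2-fold (median 1.51). The 6 genes of the MCM helicase, which licenses origins, had log2 ratios to cycling cells from −0.47 (Mcm6) to −0.95 (Mcm5). Mcm6 had 241 CPM against 334 in cycling and 123 in DN3a cells, Mcm3 195 against 297 and 45.2 CPM, and Mcm5 123 against 238 and 26.6 CPM. Ung, a uracil glycosylase, had 78.8 and 85.8 CPM in non-cycling and cycling cells (log2 ratio −0.12, interval −0.26 to 0.01) and 19.8 in DN3a. Cdca7 (340 against 380 CPM) was also close. Others were further below. Clspn, a replication checkpoint gene, had 23.9 against 136 CPM and Tk1, thymidine kinase, 29.5 against 129 CPM. Uhrf1, which keeps DNA methylation through replication, was the exception to the order, with 125 CPM in non-cycling, 208 in cycling and 195 in DN3a cells.

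Of 30 mitosis genes 27 were at least 2-fold lower than in cycling cells (median log2 ratio −2.12, interval −2.37 to −1.88). This direction too is favoured by the rule and is no independent evidence. Not all transcripts were gone. Ccnb2, cyclin B2, had 93.0 CPM against 130 in cycling, 32.5 in B and 1.74 in DN3a cells, a log2 ratio of −0.49 to cycling cells. Birc5, survivin, had 89.6 CPM, 365 in cycling, 54.1 in B and 0.918 in DN3a cells. Cdca3 had 41.0 CPM against 9.02 in B cells, and Cdc20, an activator of the anaphase-promoting complex, 51.0 against 16.2. Cenpa, the centromeric histone, had 98.5 CPM but 108 in B cells, and Ube2c had 59.8 CPM against 65.0 in B cells. The part of free RNA in these CPM of B cells was not tested either, and they set no background. Summed values hide a spread, since Cenpa had 249.5 CPM in 1 cluster of 170 cells and 34.95 CPM in the other cells (clusters below). At 4000 UMIs a cell, 22.0% of 686 non-cycling cells had a Ccnb2 UMI (95% interval 19.0% to 25.3%), against 36.0% of cycling and 0.442% of DN3a cells, and 6.90% of 29 B cells. Before thinning the shares were 33.7% and 74.4% in non-cycling and cycling cells.

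The G1 machinery was mixed. Of 11 G1 genes within the limits 9 were lower than in cycling cells, 4 by at least 2-fold (median log2 ratio −0.85), while the median against DN3a was 0.48 over 8 genes. E2f1 had 34.04 CPM against 60.6 in cycling and 5.37 in DN3a cells, and Ccne1, cyclin E1, 12.7 against 36.3 and 0.518. Among the D cyclins Ccnd2 was higher than in cycling cells (196 against 121 CPM) and Ccnd3 lower (171 against 315 CPM). Cdk6 had 549 CPM against 438 and Cdk4 had 365 against 459. Cdk6 and Ccnd2 were higher still in DN3a, at 934 and 313 CPM.

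Genes of CDK inhibition and quiescence were on balance higher than in cycling cells, with 9 of 11 above 0 and 5 by at least 2-fold (median log2 ratio 0.91, interval 0.78 to 1.09). Ypel3, a growth suppressor gene, had 104 CPM against 15.9 (log2 ratio 2.70, interval 2.58 to 2.82), close to the 136 CPM of DN3a. It was detected in 34.8% of non-cycling and 6.18% of cycling cells at 4000 UMIs. Pik3ip1, an inhibitor of PI3 kinase, had 109 against 29.6 CPM, and the antiproliferative Btg1 130.0 against 47.3. Txnip, which limits glucose uptake, had 53.1 against 21.9 CPM. All 12 genes within the limits were lower than in DN3a (median log2 ratio −1.004), among them Cdkn1a (20.2 against 94.5 CPM) and Cdkn1b (59.6 against 120.03 CPM). Cdkn2c, an inhibitor of CDK4 and CDK6, was lower than in cycling cells, at 9.61 against 27.6 CPM, and had 19.8 CPM in DN3a. B cells express many of these genes highly, Btg1 at 1518 and Ypel3 at 238 CPM, and how far free RNA of B cells entered was not tested.

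Survival genes showed no common direction. The median log2 ratio of 9 BCL2 family and p53 target genes within the limits was 0.14 (interval −0.04 to 0.32), and it falls below 0 after the TMM shift. Bcl2 itself had 187 CPM against 77.7 in cycling and 170 in DN3a cells (log2 ratio to cycling cells between 1.18 and 1.35), against 74.2 CPM in non-cycling DN4 γδ− cells and 186 CPM in B cells. Trp53inp1, a p53 target, had 53.6 against 18.7 and 171 CPM. Bax had 159 against 180.0 CPM in cycling cells.

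Growth genes lay below cycling and above DN3a cells. Of 11 nutrient uptake and growth genes 10 were lower than in cycling cells, none by 2-fold (median log2 ratio −0.60, interval −0.73 to −0.46), and 8 of 10 were higher than in DN3a (median 0.61). With the thinned rule the median against cycling cells was −0.21 (−0.38 to −0.03), and with the marker filter it was −0.38 with an interval that spans 0 (−1.53 to 0.65). The gate gene Tfrc had 56.8 CPM against 72.8 in cycling and 30.03 in DN3a cells. Slc7a5, the large subunit of an amino acid transporter, had 17.1, 33.7 and 16.4 CPM. Ldha, lactate dehydrogenase, had 496, 870 and 194 CPM. Myc had 55.2, 51.0 and 95.3 CPM, and Slc3a2, the partner of Slc7a5, had 108 CPM in both groups of the library.

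All 15 ribosome biogenesis genes within the limits were lower than in cycling (median log2 ratio −0.46) and higher than in DN3a cells (median 0.73). Ncl, nucleolin, had 1362, 2303 and 687 CPM, and Nolc1 179, 309 and 75.1 CPM. All 10 glycolysis genes within the limits were lower than in cycling cells (median log2 ratio −0.55), of which Pfkp passed 2-fold (18.7 against 38.4 CPM), and 7 of 9 were higher than in DN3a (median 0.99). Ribosomal protein genes took 36.0% of UMIs in non-cycling, 32.8% in cycling and 32.8% in DN3a cells.

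TCR signalling genes were higher than in cycling cells for 11 of 13 (median log2 ratio 0.48) and lower than in DN3a for 13 of 14 (median −0.47). The CD3 chains, which carry the signal of every TCR, led the list. Cd3g had 1321 CPM against 709 in cycling and 3283 in DN3a cells, Cd3d 809, 466 and 1795, and Cd3e 697, 438 and 765 CPM. Zap70, the kinase recruited by phosphorylated CD3 chains, differed in order, with 35.7 CPM against 47.1 and 12.9. T lineage transcription factor genes split evenly, with 8 of 16 above and 8 below cycling cells and none past 2-fold. Their median of 0.17 falls below 0 after the TMM shift, and it was −0.29 against DN3a. Bcl11b had 503 against 320 CPM, Runx1 203 against 127, Lef1 160 against 229 and Tox 29.8 against 42.6 CPM.

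Most genes of the TCR early response list stayed under 20 CPM in both groups, but the list as a whole was not lower than in cycling cells. It summed to 453 CPM in non-cycling and 373 in cycling cells. The sum was 524 CPM in DN3a and 1875 in non-cycling DN3b γδ+ cells. Of the 17 early response genes, 5 were within the limits against cycling cells (median log2 ratio 0.81). Of these, 2 were at least 2-fold higher, Cd69 (58.0 against 23.8 CPM) and Dusp5 (42.7 against 19.5 CPM). Egr2 was at 0, Egr3 had 1 UMI, and Nr4a1 and Cd5 had 5.86 and 8.63 CPM. The median was −0.35 over 6 genes against DN3a. Of the 13 αβ progression genes, 7 were within the limits, with a median of 0.70 against cycling cells and −0.48 over 8 genes against DN3a. Trac, the constant region of TCR α, had 2.93 CPM and Cd8b1 13.03, while Trbc1 (1419.8 CPM against 1276 in cycling cells) and Arpp21 (624 against 349) were abundant. Trbc1 counts are uncertain, as Trbc2 with 2060.2 CPM is a near-identical copy. All 7 γδ genes within the limits were higher than in cycling cells, 3 of them by at least 2-fold (median 0.93), and all 8 were lower than in DN3a (median −0.85). The γδ list summed to 5371 CPM in B cells, 1387 in non-cycling and 934 in cycling cells. How far free RNA of B cells entered these values was not tested. Cd53, a tetraspanin gene of white blood cells, had 24.3 against 6.91 CPM, and Tcrg-C1, a TCR γ constant region, 363 against 191 CPM and 484 in DN3a.

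Jun and Fos genes, which also respond to tissue dissociation, differed in the same order. Junb had 273 CPM against 104 in cycling and 1139.5 in DN3a cells, Jun 187 against 79.3 and 497, and Fosb 39.6 against 18.5 and 88.8. Of 10 stress and dissociation genes within the limits 3 were at least 2-fold higher than in cycling cells (median log2 ratio 0.65), and 7 of 11 were at least 2-fold lower than in DN3a (median −1.17). Hsp90aa1 was lower than in cycling cells (1139.5 against 2032 CPM). The part of dissociation in these values was not tested.

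List sums and depth both followed the number of rule-gene UMIs within the library. Median depth was 6852 UMIs in cells with 0, then 8270, 9699 and 11052 with 1, 2 and 3, 13116 with 4 to 9 and 19193 with 10 or more, and its part in the values was not tested. From the 297 cells with 0 UMIs through the 481 with 1, the 502 with 2 and the 470 with 3, summed CPM of the DN3a list went from 2493 to 2214, 1906 and 1688. It was 1455 in cells with 4 to 9 UMIs and 1274 with 10 or more. DNA replication genes went from 2626 to 3287, 3912 and 4453 CPM, a direction that the split by rule genes favours. Rag1 alone had 175, 132, 85.2 and 64.2 CPM. The cells just inside the limit thus had 132 CPM of Rag1 and those just outside it 85.2 CPM.

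**Figure D3:**
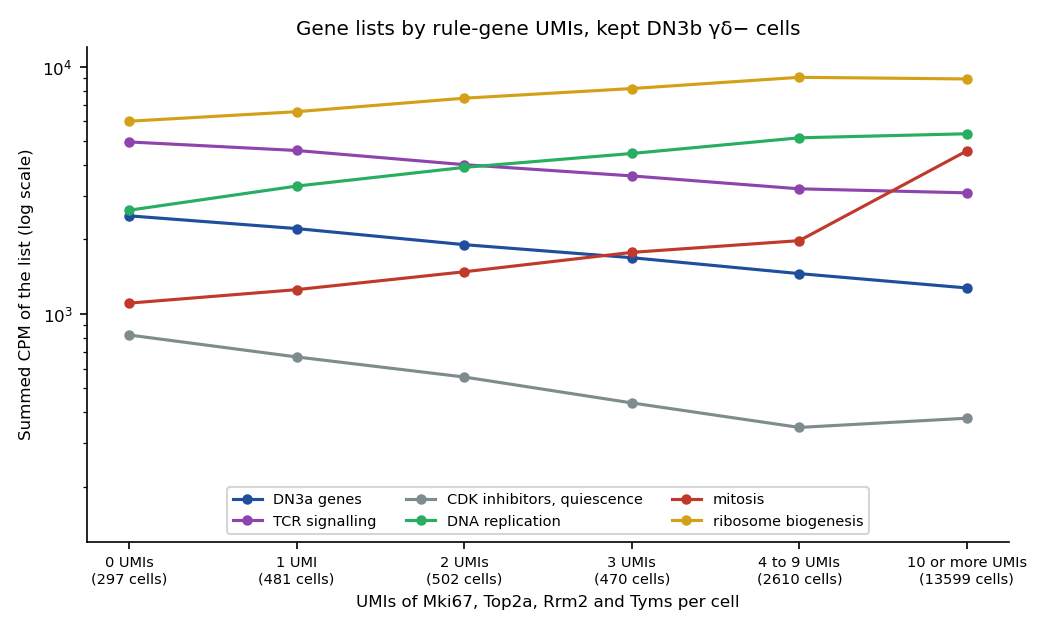
Summed CPM (log axis) of 6 gene lists in kept DN3b γδ− cells split by their UMIs of Mki67, Top2a, Rrm2 and Tyms (x axis, with the number of cells). The first 2 positions are the non-cycling cells. DN3a and TCR signalling genes are highest at 0 UMIs, DNA replication and ribosome biogenesis genes are lowest there, and mitosis genes are highest in the last position at 4564 CPM.

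Depth divided the non-cycling cells themselves. The 389 cells below the median depth had 218 CPM of Rag1, 2025 CPM of DNA replication genes and 56.2 CPM of Ccnb2. The 389 deeper cells had 111, 3574 and 112 CPM. Tfrc had 56.7 and 56.9 CPM. With the deeper cells alone, 75 of 5376 genes were at least 2-fold higher than in cycling cells and the DN3a median was 0.94. With the shallower cells alone the values were 705 of 5927 and 1.65. Shallow cells had fewer chances to show a rule-gene UMI, and depth and cell state cannot be told apart here.

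At a fixed 4000 UMIs the cells spread widely. The median non-cycling cell held 10 UMIs of DN3a genes (5th to 95th percentile 3 to 19), the median cycling cell 5 and the median DN3a cell 19. Of the 686 cells deep enough, 6.85% reached the DN3a median and 18.2% were at or below the cycling median. For DNA replication genes the values were 9.5 UMIs in non-cycling (2 to 24), 22 in cycling and 5 in DN3a cells. Within the non-cycling cells, counts of the DN3a and DNA replication lists had a Spearman correlation of −0.47 across the 686 cells, against −0.01 across cycling and −0.09 across DN3a cells. The other groups had a narrower range on 1 of the lists. The 25th to 75th percentiles were 3 to 7 DN3a UMIs in cycling and 3 to 6 replication UMIs in DN3a cells. In non-cycling cells they were 6 to 13 and 5 to 16. The part of this range in the correlations was not tested. Ribosome biogenesis and DNA replication counts correlated at 0.51 in non-cycling cells. The cells of each set share a library and a fixed depth.

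**Figure D4:**
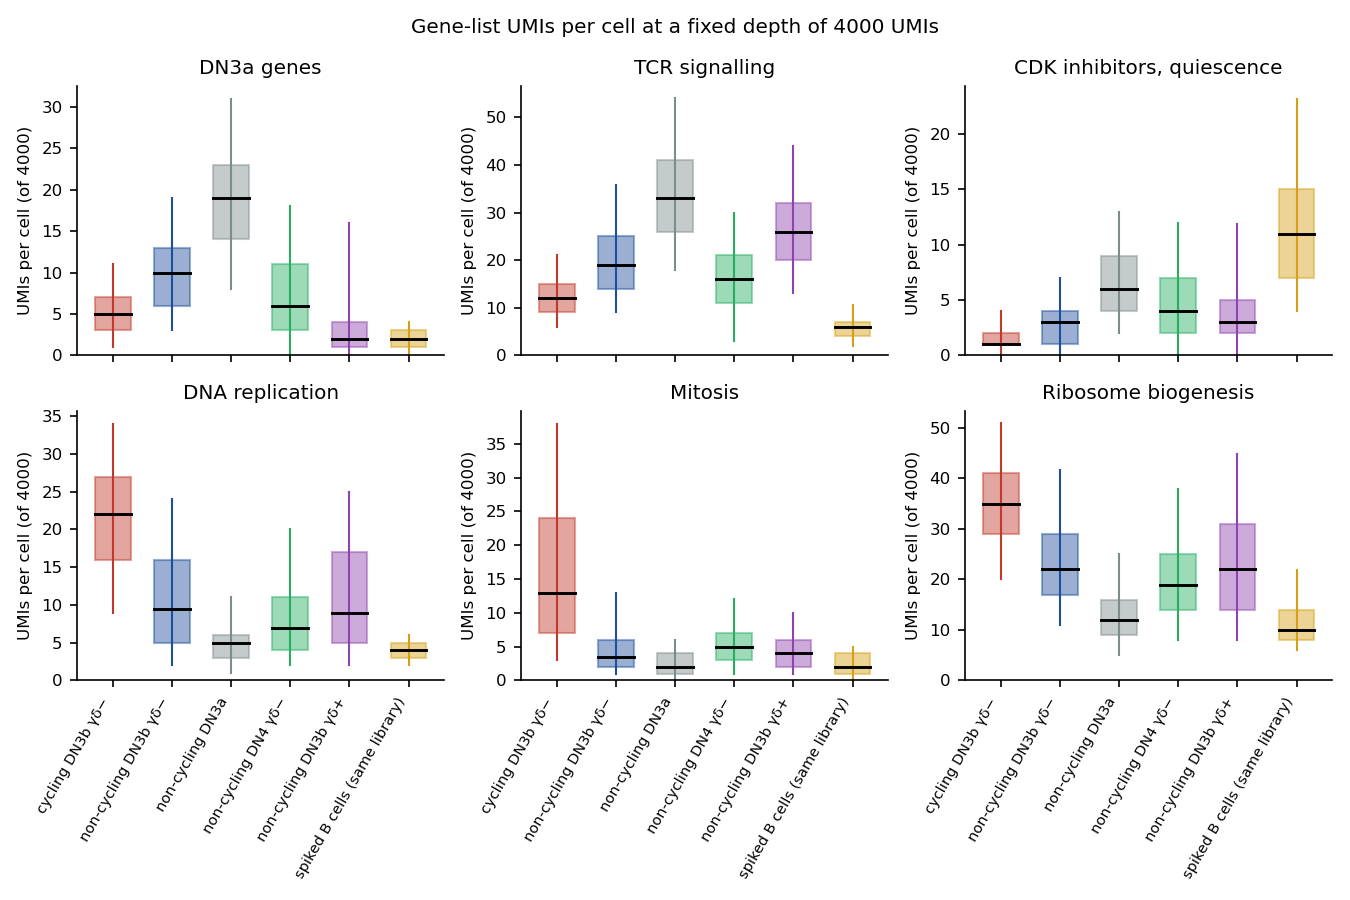
UMIs of 6 gene lists per cell after each cell was thinned to 4000 UMIs, in 6 groups of cells. Black lines are medians, boxes run from the 25th to the 75th and lines from the 5th to the 95th percentile over cells. The median of non-cycling DN3b γδ− cells for DN3a genes is 10, between 5 in cycling and 19 in DN3a cells.

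Rag1 was found in 38.9% of non-cycling cells at this depth, 11.5% of cycling and 73.5% of DN3a cells. Cells with a Rag1 UMI had Mcm6 in 43.4% (95% interval 37.4% to 49.6%) and those without in 62.5% (57.7% to 67.2%). Cells with an Il2ra UMI had Ccnb2 in 15.4% (11.6% to 19.9%) against 27.5% without (23.0% to 32.3%). The intervals overlapped for some pairs. Ccnb2 was found in 18.4% of cells with a Rag1 UMI (13.9% to 23.5%) and 24.3% without (20.3% to 28.7%), and in 17.8% with a Ptcra UMI and 24.8% without. Birc5 was found in 23.6% of cells with and 26.3% without a Rag1 UMI. Ptcra was found in 50.2% of cells with a Rag1 UMI (44.03% to 56.3%) and 32.5% without (28.0% to 37.2%). Ypel3 was found in 42.7% of cells with a Rag1 UMI (36.7% to 48.9%) and 29.8% without (25.5% to 34.5%), and Ccnb2 in 15.5% with a Ypel3 UMI (11.1% to 20.7%) and 25.5% without (21.5% to 29.8%).

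Clustering of the non-cycling cells alone, without the rule genes, gave 4 clusters. Their genes are a description, as the same genes made the clusters, and no cluster was given a cell type name. Cluster 1 held 263 cells (33.8%), with Ctla2a, Gm5111, Tshz2, Nkg7 and Bcl2 among its leading genes, 312 CPM of Il2ra and a median of 5949 UMIs. Cd74 also led it, with most of its UMIs in the 1 cell described above. Cluster 4 held 149 cells (19.2%), was led by B230118H07Rik, Slc5a9 and H19, and had the most Rag1 (346 CPM) and Ptcra (267 CPM). Cluster 2 held 196 cells (25.2%) with E2f1, Ung, Prim1, Lig1 and Cdt1 among the leading genes, 141 CPM of Ung against 85.8 in cycling cells, and 4203 CPM of DNA replication genes against 1849 in cluster 1, 1508 in cluster 4 and 5329.7 in cycling cells. Cluster 3 held 170 cells (21.9%) and was led by Cenpa, Cdc20, Tpx2 and Ccnb2, with 227 CPM of Ccnb2 against 27.4 to 45.5 in the others and 130 in cycling cells, 249.5 CPM of Cenpa against 176 in cycling cells, 2089 CPM of mitosis genes against 4296 in cycling cells, and a median of 10943 UMIs. Its Rag1 level was 70.9 CPM and its Ypel3 level 22.0 CPM, against 185 CPM of Ypel3 in cluster 1. The median depths of the clusters differed, and the part of depth in the split was not tested.

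**Figure D5:**
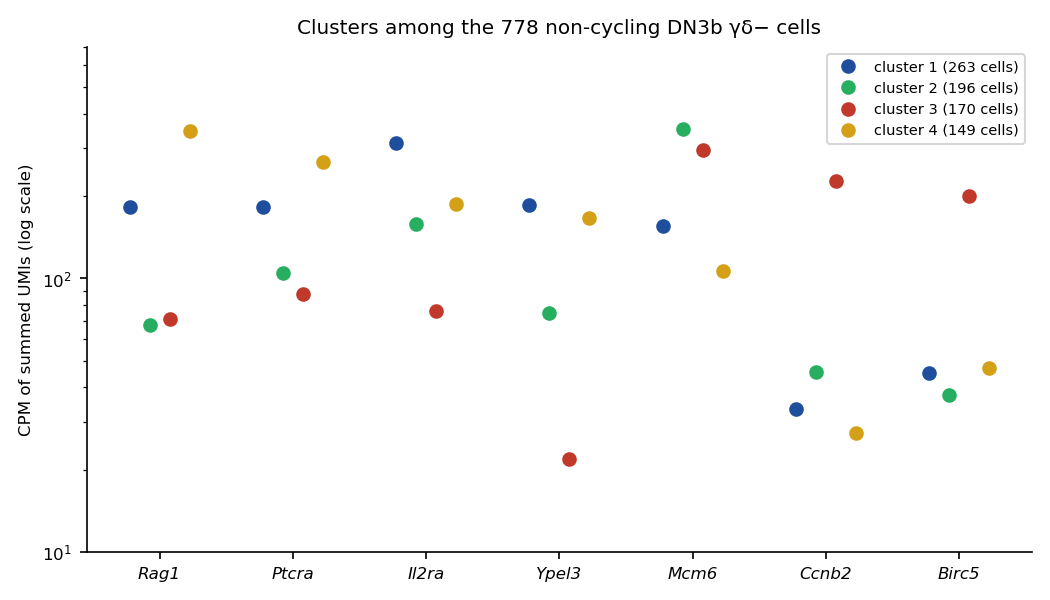
CPM (log axis) of 7 genes in the 4 clusters of non-cycling DN3b γδ− cells, from UMIs summed over the cells of a cluster. Ccnb2 and Birc5 are highest in cluster 3, Mcm6 in cluster 2, Rag1 and Ptcra in cluster 4, and Il2ra and Ypel3 in cluster 1.

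Non-cycling cells of DN4 γδ− differed from those of DN3b γδ− in fewer genes. Of 5578 genes 72 (1.29%) were at least 2-fold higher in DN3b γδ− and 175 (3.14%) at least 2-fold lower. Highest were H19, Il2ra (179 against 30.6 CPM, with its protein part of the gate), Khdc1a, Mpzl2 and Epb41l4b. Rag1 had 147 CPM against 200.3 in DN4 γδ−, whereas Bcl2 had 187 against 74.2 CPM. Lowest were Pth, Chga, Dcn, Sparc and Krt5, genes of parathyroid, stromal and epithelial cells. Pth had 1248 CPM in DN4 γδ− and 0 UMIs in the 778 cells, and Krt5 had 51.0 CPM there and 1 UMI here. At 4000 UMIs a cell Pth was found in 3 and Krt5 in 14 of 498 non-cycling DN4 γδ− cells. Before thinning, 36 of the 583 cells of DN4 γδ− had under 10 UMIs of T cell markers, against 6 of the 778. S100a8 and S100a9 had 33.4 and 26.5 CPM in DN4 γδ− and 0 in DN3b γδ−. Such transcripts were near 0 in DN3b γδ−, and their part in the comparison was not tested. DN3a genes had a median log2 ratio of 0.42 over 9 genes, γδ genes −1.15 over 14 and early response genes −0.96 over 8. Against cycling cells only 7 γδ and 5 early response genes were within the limits. The others passed them here through DN4 γδ−, where they are high, so the medians of these lists are partly set by the limits. Cd8b1, an early gene of the next stage, had 123 CPM in DN4 γδ− against 13.03, and Trac 48.3 against 2.93.

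Non-cycling cells of DN3b γδ+ differed in the TCR response. Of 5662 genes 200 (3.53%) were at least 2-fold higher in DN3b γδ− and 332 (5.86%) at least 2-fold lower. All 12 early response genes within the limits were at least 2-fold lower in DN3b γδ− (median log2 ratio −3.50), as were 14 of 18 γδ genes (median −2.96). Only 5 and 7 of these reached 20 CPM in DN3b γδ−. The others passed the limits through DN3b γδ+, where they are high, so that these counts and medians are largely set by the limits. The early response genes that reached 20 CPM in both groups were Cd27, Dusp5, Cd69, Cd28 and Id3, with log2 ratios from −1.13 to −2.38. Nr4a1 had 5.86 against 148 CPM, Cd5 8.63 against 147 and Pdcd1 8.14 against 154. The study named some of the γδ and DN3a genes from these libraries, so their direction is no independent evidence. Lowest by ratio were Xcl1, Ccl3, Gem, Egr3 and A430093F15Rik. Highest were Nrp1, Myzap, Ndrg1, Rag2 (33.1 against 4.41 CPM) and Tubb2b, and 8 of 9 DN3a genes were at least 2-fold higher (median 1.68). Rag2, a DN3a gene, passed the limits only through DN3b γδ−, so the limits favour this count and median too. DNA replication, ribosome biogenesis and growth lists had medians of −0.09, 0.07 and −0.18, with intervals of −0.27 to 0.05, −0.02 to 0.17 and −0.42 to 0.07.

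The same rule applied within those libraries gave non-cycling cells that also differed from cycling ones. In DN4 γδ− 453 of 5486 genes (8.26%) were at least 2-fold higher and 246 (4.48%) lower, and in DN3b γδ+ 105 of 5460 (1.92%) were higher and 203 (3.72%) lower. The 15 genes lowest in DN3b γδ− were all at least 2-fold lower in both, with medians of −2.61 and −2.73. Use of the same rule favours this direction. Of the 15 highest, all were at least 2-fold higher in DN4 γδ− and 12 in DN3b γδ+, where Ctla2a, Hist1h2bc and Alox5ap had log2 ratios of 0.94, 0.86 and 0.43. Only 7 and 6 of the 15 were within the limits in these libraries. DN3a genes had medians of 0.81 in DN4 γδ− and 1.50 in DN3b γδ+. Early response genes had a median of 1.37 in DN4 γδ−, where 6 of 8 were at least 2-fold higher, against 0.81 for 5 genes in DN3b γδ−. In the same contrast of DN4 γδ− the γδ genes had a median of 2.01 (11 of 14 at least 2-fold higher), and markers of other cell types were higher too, with medians of 4.14 for B cells over 6 genes and 5.96 for stromal and epithelial cells over 6, and with all 3 myeloid markers within the limits at least 2-fold higher. Their part in the counts and medians of DN4 γδ− was not tested. A gene low in cycling cells entered this contrast only through non-cycling cells, which favours high medians. Ribosome biogenesis genes had medians of −0.73 in DN4 γδ− and −0.08 in DN3b γδ+, against −0.46.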

How the data were processed

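For each library the authors deposited raw UMI counts, neither scaled nor corrected, from Cell Ranger on a modified mm10 reference. The headers name release 4.0.0 and the submitters' processing notes 5.0.1. Every matrix lists 32286 features. The 7 libraries held 90016 barcodes, and that of DN3b γδ− 20946 barcodes and 375688164 UMIs.

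The rule above was applied to the counts (Python 3.11.15, numpy 2.4.6, scipy 1.17.1). UMIs were summed over cells and divided by their total to give CPM. Counts have exact Poisson, shares exact Clopper-Pearson and log2 ratios of single genes exact conditional binomial 95% intervals, for counting error only. List intervals are medians of the genes' lower and upper bounds. A count of 0 entered a ratio as 3 counts. B cells had at least 10 UMIs of Cd79a, Cd79b and Ms4a1 and under 10 of T cell markers. Cells with at least 4000 UMIs were thinned to 4000 for shares, which left out 92 non-cycling, 146 cycling, 146 DN3a and 155 B cells. Clusters used 2000 variable genes, 20 components, 20 neighbours and the Leiden method at resolution 0.5 (scanpy 1.11.5, leidenalg 0.10.2). TMM factors came from edgeR 4.0.16 on the summed counts. Doublet scores came from scrublet in scanpy. No caller removed doublets from the values above. Ratios, intervals and thinning were checked on simulated data.

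The cells, gene lists and tests were chosen with earlier results of these data known. Named genes are members of the lists and the 15 highest and 15 lowest genes by ratio to cycling cells, or 5 and 5 in each other comparison, with at least 20 CPM in either group and 10 UMIs together, without mt-, ribosomal protein and rule genes and genes higher in B cells than in both groups. Promoters came from RefSeq on GRCm38.p6.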

Additional observations from a re-analysis of the deposited data

Results flagged for a closer look

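A pair of transcription factor genes lay on opposite sides of 0 in the same contrast, non-cycling over cycling cells, in DN3b γδ− and in DN4 γδ−, with both 95% intervals away from 0 and a difference of at least 1 on the log2 scale. Tox, which takes part in T cell maturation, had a log2 ratio of −0.52 in DN3b γδ− (29.8 against 42.6 CPM, interval −0.74 to −0.31) and 1.04 in DN4 γδ− (75.6 against 36.8 CPM, interval 0.87 to 1.20). Id3, an inhibitor of E proteins, had −0.61 in DN3b γδ− (60.6 against 92.3 CPM, interval −0.76 to −0.46) and 0.40 in DN4 γδ− (157 against 119 CPM, interval 0.28 to 0.51). Each group is 1 library, so the difference was not tested. Some non-cycling DN4 γδ− cells also held transcripts of other cell types, and the part of these in the values was not tested. Pth, at 1248 CPM, was found in 3 of 498 such cells at 4000 UMIs.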

How the results depend on the processing

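The number of non-cycling cells was 297 with 0 UMIs of the rule genes and 44 when a cell needed 10 or more T cell marker UMIs and no more than 1 of myeloid, plasmacytoid, NK and erythroid markers (the marker filter). Only 6 of the 778 cells had under 10 T cell marker UMIs. The NK and plasmacytoid lists include Gzma and Bst2, which cycling cells also held. The number of non-cycling cells stayed within 1.5 times of 778 under the other alternatives, at 686 to 1139. The number of genes within the limits differed between settings, so counts are given beside it. Genes at least 2-fold higher than in cycling cells (222 of 5569) were 338 of 5669 with 0 rule-gene UMIs. With no CPM limit they were 3761 of 15239. They were 51 of 5379 with the thinned rule, with 0 against at least 2 rule-gene UMIs at 4000 UMIs a cell. Without genes higher in B cells than in either group they were 84 of 3386, and with the marker filter 733 of 6237. Lower genes (208 of 5569) were 327 of 5569 under TMM and 576 of 15239 with no CPM limit. They were 137 of 3386 without genes higher in B cells and 546 of 6237 with the marker filter. The DN3a median against cycling cells (1.29) was 1.44 with 0 UMIs, 1.11 after thinning, 0.72 with the thinned rule, 1.08 under TMM, 0.92 with no CPM limit and 0.83 with the marker filter. Against DN3a cells (−1.58) it was −1.45 with 0 UMIs, −2.04 with the thinned rule, −1.34 with no CPM limit and −1.21 with the marker filter. The growth median (−0.60) was −0.21 with the thinned rule, −0.81 under TMM and −0.38 with the marker filter. Leiden resolution 1 gave 8 clusters in place of 4. Neither of these medians changed sign under the alternatives. Other lists were not run through them, except that the TMM shift takes the medians of BCL2 family and p53 target genes (0.14) and of T lineage transcription factor genes (0.17) below 0. In all, 34 of 67 values stayed within their counting interval or within 1.5 times of the count. TMM adds its shift by construction. Without genes higher in B cells, 3386 genes were within the limits in place of 5569. The causes of the other moves were not tested.

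A split at the median depth was added after seeing the data. The deeper cells gave 75 of 5376 genes higher and DN3a medians of 0.94 and −1.92. The shallower cells gave 705 of 5927 higher, 419 of 5927 lower, DN3a medians of 1.65 and −0.98 and a growth median of −0.82. No paired analysis was possible because each group is 1 library without a replicate number. The top 8% of doublet scores held 2 of the 778 cells. Depth limits what single cells show, and 1 library per group leaves the spread between mice unknown.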
